A study of Mus musculus with 16 samples.

Results

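The dual-specificity MAP kinase phosphatases described here were 8 of the 23356 genes in the deposited tables, chosen by gene symbol: Dusp1, Dusp4, Dusp5, Dusp6, Dusp8, Dusp10, Dusp14 and Dusp16. Their RNA was measured in 16 libraries of NIH3T3 cells, a mouse embryonic fibroblast line, which in every group stably carried a destabilizing domain (DD) joined to superfolder GFP (DD-sfGFP). The study asked how cells respond to the appearance of an unfolded protein. These libraries served to compare that response with proteasome inhibition by bortezomib. Control cells (stress: none, 0min) were compared with cells exposed to bortezomib for 45, 135 or 405 min, with 4 replicate libraries in each of the 4 groups. The DD is a mutant of FKBP12 that the proteasome degrades unless a stabilizing ligand is bound. The methods describe DD-sfGFP in a PiggyBac transposon vector and a low-expressing form in a retroviral vector, with cells sorted for high GFP in either case, so they were a sorted population and not a single clone. Which vector these libraries' cells held is not given in the sources used here. Cells kept without drug for 45, 135 or 405 min were not analysed here, so bortezomib and elapsed time cannot be told apart. The bortezomib dose is not given in the sources used here, and nothing there says whether replicates came from separate cultures, so p-values measure only the spread between these libraries.

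MAP kinases such as ERK, JNK and p38 are switched on by phosphorylation of a threonine and a tyrosine in their activation loop. The dual-specificity MAP kinase phosphatases remove both phosphates and switch the kinases off. Many of them are made from genes that the same kinases induce, so they act as negative feedback, and their transcripts and proteins tend to be short-lived. Dusp1, Dusp4 and Dusp5 encode inducible nuclear phosphatases, Dusp6 a cytoplasmic phosphatase selective for ERK, and Dusp8, Dusp10 and Dusp16 phosphatases that prefer JNK and p38. Dusp14 encodes a small phosphatase that lacks the kinase-binding domain of the others.

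The libraries were of 2 kinds that the groups did not explain. In 7 libraries ribosomal protein genes held 4.25% to 9.42% of fragments and olfactory and vomeronasal receptor genes, which fibroblasts are not known to use, 0.00556% to 2.62%. These 7 were replicates 1 and 2 of 45 min, the same numbers of 135 min, and all of 405 min but replicate 2. In the other 9, which included all 4 controls, these shares were 0.398% to 1.21% and 4.16% to 5.14%. Totals were 1385229 to 19930375 fragments in the 7 and 570323 to 1469951 in the 9. Fibroblast markers were clear in the 7 libraries, with the vimentin gene Vim at 1193 to 7302 CPM (a gene's fragments scaled to a common library total). In the 9 libraries Vim was at 21.8 to 420 CPM, while the 4 epithelial markers summed to 88.1 to 172 CPM, the 3 endothelial ones to 109 to 279 CPM and the 3 leukocyte ones to 42.8 to 110 CPM, against medians of 5.24, 9.40 and 3.26 CPM in the 7. Among the 7 libraries these sums were highest in 405 min replicate 3, at 78.7, 56.3 and 31.0 CPM, with Vim at 1193 CPM. It also had the lowest ribosomal share (4.25%) and the highest receptor share (2.62%) of the 7. With a split at 6% it would fall with the 9. The markers bore out the label as fibroblasts in the 7, least clearly in this library, and much less so in the 9. The kind of library moved with treatment, and its part in any difference between bortezomib and control was not tested. Members are therefore described over all 16 libraries and, where they were tested there, within the 7 (where 45 min is the reference) and within the 9 (the only libraries in which bortezomib could be set beside control within 1 kind).

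Dusp4, a nuclear phosphatase that acts on ERK and JNK, was the member with the highest level in bortezomib-treated cells and the largest fitted difference from control (chr8:35870351-35882948, plus strand, NCBIM37). In control it was at 23.7, 27.9, 12.3 and 20.8 CPM in replicates 1 to 4. At 45 min it was at 75.1, 33.4, 57.1 and 16.02 CPM. At 135 min it was at 148, 261, 28.1 and 61.3 CPM, and at 405 min at 108, 72.8, 146 and 286 CPM. The 45 min libraries overlapped with the controls, whereas all 4 libraries at 135 min and all 4 at 405 min lay above all 4 controls in CPM. At 135 min this rested on replicate 3 at 28.05 CPM (16 fragments) against control replicate 2 at 27.86 CPM, and the groups overlapped in deposited FPKM (9.71 against 10.39) and in TMM-scaled CPM (36.9 against 40.1). At 405 min the groups did not overlap on any of these 3 scales. Of the 5030 genes tested over all libraries, 2.47% at 135 min and 6.86% at 405 min stood above control in the same way, and Dusp4 was the 1 of 5 tested members that did. At 45 min 0 members lay above all controls, beside 1.37% of genes, and 0 lay below all of them at 45, 135 or 405 min, beside 2.8%, 4.06% and 6.88%. Its mean was 21.2 ± 6.56 CPM in control and 153 ± 93.6 CPM at 405 min (SD, n = 4 each), a 7.24-fold ratio of means.

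The fitted log2 fold change of Dusp4 against control was 1.40 (SE 0.75) at 45 min, 2.79 (SE 0.78) at 135 min and 3.26 (SE 0.80) at 405 min. None passed the threshold in edgeR's quasi-likelihood test, with Benjamini-Hochberg adjusted p of 0.424, 0.513 and 0.285. The unadjusted p was 0.0784, 0.00216 and 0.00067. In total 0 of the 5 tested members and 0% of all tested genes were called at an adjusted p under 0.05 at any time. At an unadjusted p under 0.05, 1 member (Dusp4) was higher at 135 min and at 405 min and 0 at 45 min, beside 7.83%, 14.5% and 12.1% of all tested genes, and 0 members were lower (9.18%, 16% and 12.9% of genes in either direction). DESeq2 called Dusp4 at 405 min (log2 fold change 3.13, SE 0.70, adjusted p = 0.00139), as it did 8.03% of genes, all of them higher. At 45 and 135 min its independent filter left Dusp4 without an adjusted p, and it called 6.56% and 3.44% of genes there.

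**Figure D1:**
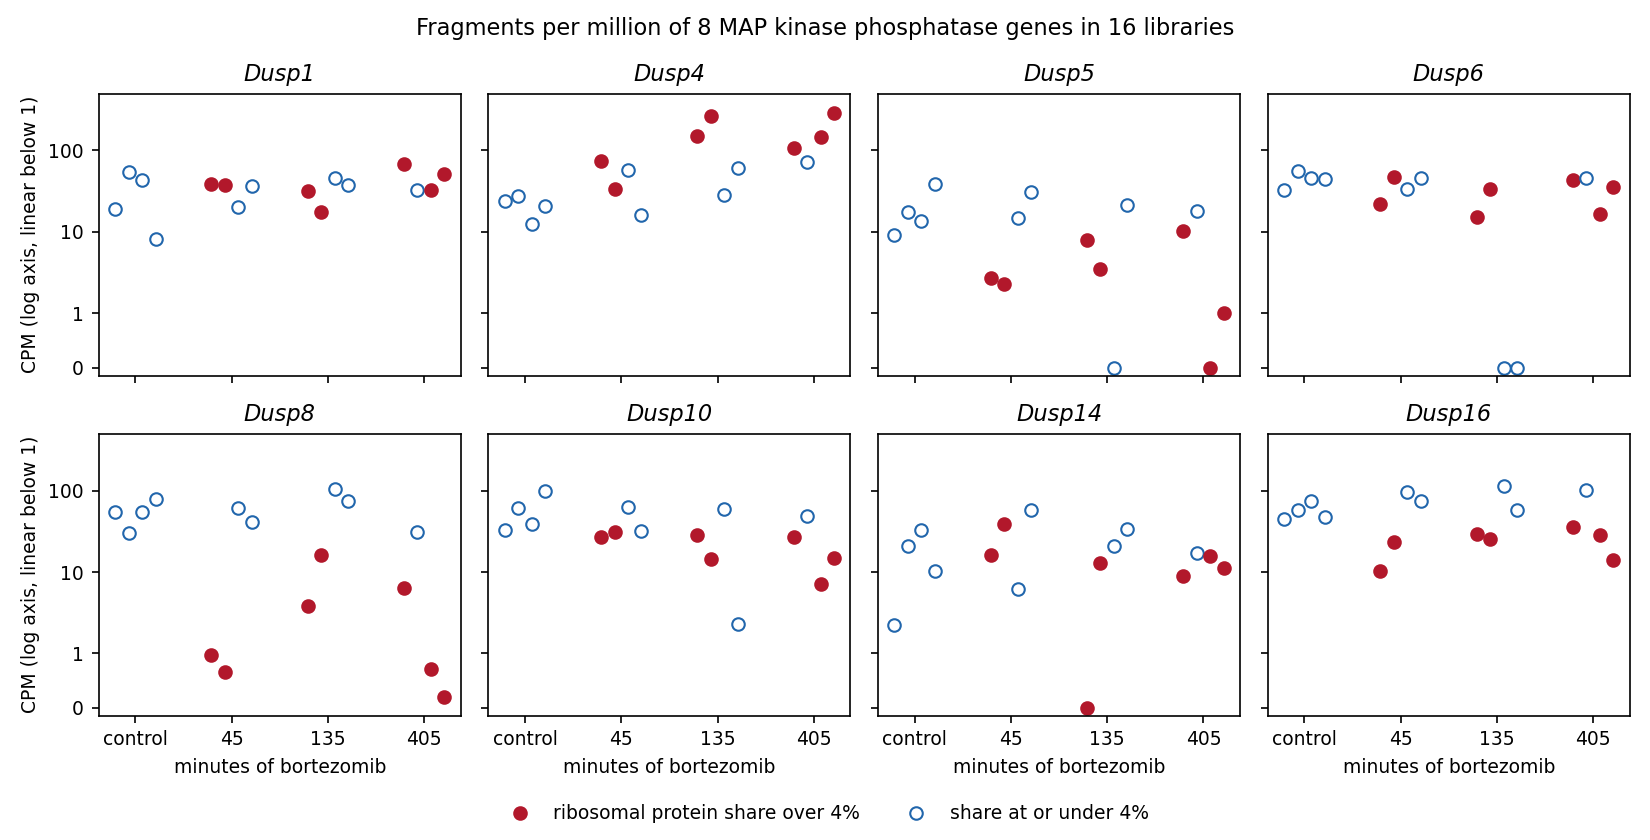
Each panel plots 1 gene in CPM (log axis, linear below 1) against minutes of bortezomib, with 1 point per library and replicates 1 to 4 from left to right. Filled red points are libraries with a ribosomal protein share over 4% and open blue points the others. Dusp4 reached 286 CPM at 405 min with all libraries at that time above the controls, while at 135 min the lowest library (28.05 CPM) was level with the highest control (27.86 CPM), and Dusp8 was at or below 15.96 CPM in every filled point.

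Within each kind of library the fitted differences of Dusp4 were also positive, and none passed the adjusted threshold. In the 9 libraries the differences from control were smaller at each time than those over all libraries. In the 7 the fits held no control, so their differences cannot be compared in size with those from control. In the 7 libraries it was at 75.1 and 33.4 CPM at 45 min, 148 and 261 CPM at 135 min, and 108, 146 and 286 CPM at 405 min. All libraries at 135 min and at 405 min were above both at 45 min, as were those of 19.8% and 9.24% of the 8605 genes tested. For 405 against 45 min the libraries overlapped in deposited FPKM. The log2 fold change was 1.78 (SE 0.76) for 135 against 45 min and 1.80 (SE 0.72) for 405 against 45 min, with unadjusted p of 0.0395 and 0.0297 and adjusted p of 0.997 and 0.690 (edgeR quasi-likelihood test). At an unadjusted p under 0.05, 1.28% of all genes were higher in the first comparison and 3.01% in the second, and Dusp4 was the 1 of 6 tested members that was (1.64% and 7.16% in either direction). Between 135 and 405 min the difference was 0.02 (SE 0.67), and there 0 members had an unadjusted p under 0.05, beside 3.32% of genes (1.46% higher). DESeq2 called 0 members in these comparisons, beside 0.0349% of genes for 135 against 45 min, 0.721% for 405 against 45 min and 0% for 405 against 135 min. Without 405 min replicate 4, the deepest library, the log2 fold change for 405 against 45 min was 1.11 (SE 0.65).

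In the 9 libraries Dusp4 was at 57.1 and 16.02 CPM at 45 min, 28.1 and 61.3 CPM at 135 min and 72.8 CPM in the 1 library at 405 min. Both libraries at 135 min and the 1 at 405 min were above the highest control at 27.9 CPM, as were those of 13.4% and 15% of the 8366 genes tested. At 135 min the separation was lost in deposited FPKM (9.71 against 10.39) and in TMM-scaled CPM (33.3 against 38.3). The log2 fold changes against control were 0.83 (SE 0.70), 1.01 (SE 0.70) and 1.78 (SE 0.84), with unadjusted p of 0.258, 0.171 and 0.0505 (edgeR quasi-likelihood test). The first ranged from -0.41 to 1.45 with 1 library left out and was negative without 45 min replicate 3. The 1 library at 405 min was assumed to vary like the other groups. No member was called in these libraries, where edgeR called 0%, 0% and 0.0239% of genes at the 3 times and where 0 of 6 tested members had an unadjusted p under 0.05, beside 2.61%, 10.3% and 0.562% of all tested genes (0.669%, 4.4% and 0.215% higher). DESeq2 called 0 members there, beside 0%, 1.49% and 0.0478% of genes. At 45 min 0 members stood above or below all controls, beside 7.35% and 7.15% of genes, and 0 stood below them at 135 or 405 min, beside 9.18% and 16.8%.

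**Figure D2:**
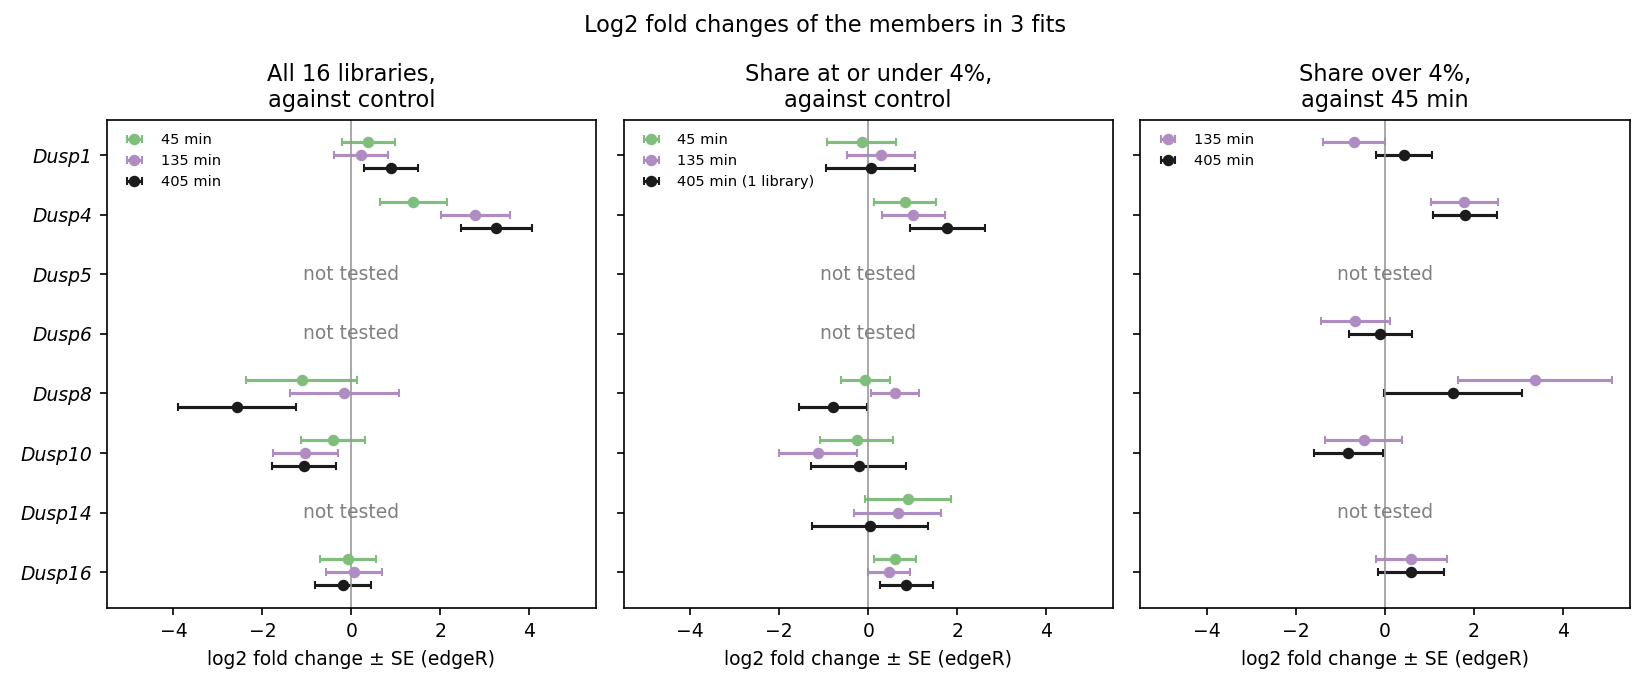
Points are log2 fold changes from edgeR and bars are standard errors, by member and time, over all 16 libraries against control (left), in the 9 libraries with a ribosomal protein share at or under 4% against control (middle) and in the 7 libraries over 4% against 45 min (right). Dusp4 lies to the right of 0 in each panel, from 0.83 to 3.26, and the bars of most other values cross 0 or end near it.

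The library pair with the lowest receptor shares was 45 min replicate 1 (0.00556%) and 405 min replicate 4 (0.00774%). It gave a comparison at similar receptor share, ribosomal share (8.34% and 8.59%) and depth, with 1 library on each side and so no replicate check. Fibroblast markers differed, with Vim at 6006 and 4112 CPM and the collagen gene Col1a1 at 2206 and 1089 CPM. The pair was picked by receptor share after the values had been seen. Dusp4 was at 75.1 CPM (1381 fragments) in the first and 286 CPM (5708 fragments) in the second. Dusp1 was at 38.4 and 51.9 CPM, Dusp6 at 22.2 and 35.4 CPM and Dusp16 at 10.3 and 14.1 CPM. Dusp10 was at 26.8 and 14.9 CPM, Dusp14 at 16.2 and 11.1 CPM, Dusp5 at 2.72 and 1.0035 CPM and Dusp8 at 0.979 and 0.201 CPM. The other members were higher in the second library in 3 cases and lower in 4, and the ratio between the libraries was wider for Dusp8, on 18 and 4 fragments, than for Dusp4.

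**Figure D3:**
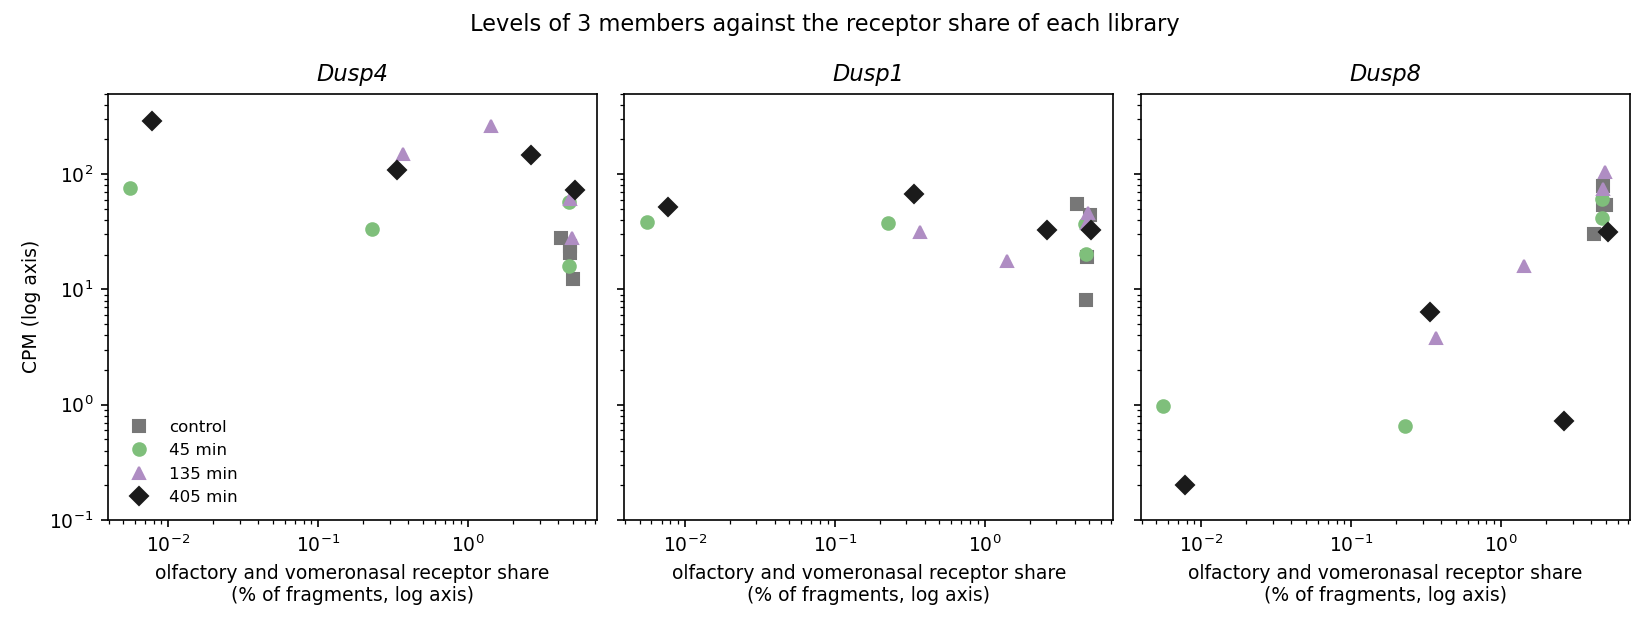
The CPM of Dusp4, Dusp1 and Dusp8 in each library (log axis) is plotted against the percentage of its fragments on olfactory and vomeronasal receptor genes (log axis), with a symbol for each time. The highest Dusp4 value, 286 CPM, was in a library with a receptor share of 0.00774%, and all Dusp8 values of 30.2 CPM or more were in libraries with receptor shares of 4.16% or more.

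Dusp1, the classical immediate-early member of the family, acts in the nucleus on p38, JNK and ERK (chr17:26642535-26645464, minus strand, NCBIM37). Its libraries overlapped with control at every time. It was at 19.2, 54.6, 43.8 and 8.09 CPM in control, 38.4, 37.7, 20.4 and 36.8 CPM at 45 min, 31.4, 17.7, 45.6 and 37.5 CPM at 135 min, and 67.7, 32.5, 32.5 and 51.9 CPM at 405 min. The control libraries spanned almost the whole range of the treated ones. The log2 fold changes against control were 0.38 (SE 0.60), 0.21 (SE 0.60) and 0.89 (SE 0.60), with adjusted p from 0.439 to 0.919 (edgeR quasi-likelihood test). Among the 7 libraries both Dusp1 values at 135 min were below both at 45 min, as were those of 13.3% of genes, though not in deposited FPKM, and the log2 fold change was -0.70 (SE 0.70). For 405 against 45 min it was 0.43 (SE 0.64). In the 9 libraries the log2 fold changes against control were -0.15, 0.28 and 0.06, with standard errors from 0.76 to 0.997.

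Dusp5, a nuclear phosphatase selective for ERK (chr19:53603599-53616921, plus strand, NCBIM37), was a low gene in these cells. It was at 9.03, 17.4, 13.5 and 38.2 CPM in control and at 2.72, 2.29, 15.0 and 30.4 CPM at 45 min. It was at 7.93, 3.45, 0 and 21.6 CPM at 135 min and at 10.3, 18.2, 0 and 1.0035 CPM at 405 min. By kind of library, the 7 ranged from 0 to 10.3 CPM. The other 9 ranged from 9.03 to 38.2 CPM apart from 135 min replicate 3 at 0, so the ranges overlapped. All 4 controls were among the 9, and the parts of kind and time in these values were not tested. A count of 0 allows up to 5.26 CPM in 135 min replicate 3 and up to 2.17 CPM in 405 min replicate 3 (3 counts, counting error only). Because of these zeros Dusp5 was not in the fits, and its mean log2(CPM + 1) was compared with control by a 2-sided exact permutation test. In that exact permutation test the differences were -0.89, -1.70 and -1.99 at 45, 135 and 405 min, with p = 0.286, 0.229 and 0.2, where 0.0286 is the smallest p that 4 against 4 allows. With 9 such tests run on the members with a zero, the smallest unadjusted p was 0.0571, for Dusp6 at 135 min.

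Dusp6, the cytoplasmic ERK phosphatase that is widely read as a gauge of ERK output (chr10:98725865-98730122, plus strand, NCBIM37), was at similar levels in control, 45 min and 405 min cells. It was at 32.8, 55.7, 46.0 and 45.1 CPM in control, 22.2, 46.8, 33.3 and 46.5 CPM at 45 min and 43.2, 45.5, 16.6 and 35.4 CPM at 405 min. At 135 min it was at 15.2 and 33.9 CPM in replicates 1 and 2 and had no fragments in replicates 3 and 4. The zeros allow up to 5.26 and 3.41 CPM, so over both libraries Dusp6 was at least 21.7-fold lower than the 44.8 CPM of the pooled controls (3 counts over both libraries, counting error only). In these libraries 47.5% and 32.8% of all 23356 genes were at 0, and the part of this in the zeros was not tested. The differences in mean log2(CPM + 1) from control were -0.08, -3.31 and -0.15 (2-sided exact permutation test, p = 0.857, 0.0571 and 0.743). Within the 7 libraries Dusp6 was tested by edgeR, and its log2 fold change was -0.67 (SE 0.78) for 135 against 45 min and -0.11 (SE 0.71) for 405 against 45 min.

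Among the phosphatases that prefer JNK and p38, Dusp8 separated the 2 kinds of library most widely (chr7:149265395-149281748, minus strand, NCBIM37). It was at 54.2, 30.2, 53.9 and 78.6 CPM in control and at 0.979, 0.655, 60.5 and 41.6 CPM at 45 min. It was at 3.80, 15.96, 105 and 73.8 CPM at 135 min and at 6.31, 31.2, 0.722 and 0.201 CPM at 405 min. No library over 4% reached the lowest of the other 9 (30.2 CPM). The log2 fold changes against control over all libraries, -1.11 (SE 1.25), -0.16 (SE 1.23) and -2.56 (SE 1.33), had an adjusted p of 0.340 or more (edgeR quasi-likelihood test). The 45 and 135 min groups held 2 libraries of each kind and the 405 min group 3 of the 7, and the part of this in the values was not tested. Within the 9 libraries they were -0.07 (SE 0.55), 0.60 (SE 0.54) and -0.79 (SE 0.77). Within the 7, both libraries at 135 min were above both at 45 min, as were those of 19.8% of genes. The log2 fold change was 3.37 (SE 1.74). Receptor shares also differed between these libraries, at 0.371% and 1.42% at 135 min and 0.00556% and 0.228% at 45 min. In 405 min replicate 3 the share was 2.62% and Dusp8 was at 0.722 CPM. The part of composition in this difference was not tested. Among the 7, 45 min replicate 2 and 405 min replicate 4 held 4 Dusp8 fragments each and 405 min replicate 3 held 1. GENCODE M1, used here for positions and lengths, has 2 overlapping genes named Dusp8. The fragments were counted over RefSeq genes per the study's methods, and whether any were split is not given in the sources used here.

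Dusp10 dephosphorylates JNK and p38 in both cytoplasm and nucleus (chr1:185837181-185899515, plus strand, NCBIM37). Its mean CPM was lower at all 3 times than in control, but the libraries overlapped. It was at 32.8, 61.5, 39.3 and 98.3 CPM in control, 26.8, 31.3, 62.6 and 32.0 CPM at 45 min, 28.9, 14.4, 59.6 and 2.27 CPM at 135 min and 26.7, 49.4, 7.22 and 14.9 CPM at 405 min. The log2 fold changes against control were -0.41 (SE 0.71), -1.03 (SE 0.72) and -1.06 (SE 0.72), with adjusted p from 0.445 to 0.793 (edgeR quasi-likelihood test). Within the 9 libraries they were -0.26 (SE 0.82), -1.13 (SE 0.88) and -0.22 (SE 1.07). Among the 7 libraries all 3 values at 405 min were below both at 45 min, as were those of 15.9% of genes, and the log2 fold change was -0.82 (SE 0.78). An antisense gene, 1700056E22Rik, overlaps Dusp10, and whether counting used the strand is not given in the sources used here.

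Dusp16, a JNK and p38 phosphatase with a long transcript of 7.65 kb of annotated exon (chr6:134665488-134742643, minus strand, NCBIM37), was at 45.2, 58.0, 74.1 and 47.4 CPM in control. It was at 10.3, 23.2, 95.2 and 73.7 CPM at 45 min, 29.2, 25.2, 114 and 57.9 CPM at 135 min and 35.4, 101, 28.2 and 14.1 CPM at 405 min. As for Dusp8, the 7 libraries (10.3 to 35.4 CPM) lay below the 9 (45.2 to 114 CPM). The log2 fold changes against control over all libraries were between -0.19 and 0.06, each with a standard error of 0.63. Among the 7, both libraries at 135 min were above both at 45 min, as were those of 19.8% of genes, but not in deposited FPKM or TMM-scaled CPM. The 1 library at 405 min among the 9 was above all controls, as for 15% of genes. Within the 7 libraries the log2 fold changes were 0.59 (SE 0.80) and 0.58 (SE 0.74) against 45 min. Within the 9 they were 0.60 (SE 0.47), 0.47 (SE 0.48) and 0.86 (SE 0.59) against control, with adjusted p of 0.783 or more (edgeR quasi-likelihood test).

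Dusp14, the small phosphatase without a kinase-binding domain (chr11:83861543-83882763, minus strand, NCBIM37), varied most among the controls. It was at 2.26, 20.9, 32.5 and 10.4 CPM in control and at 16.2, 38.5, 6.12 and 57.7 CPM at 45 min. It was at 0, 12.9, 21.0 and 34.1 CPM at 135 min and at 8.94, 16.9, 15.9 and 11.1 CPM at 405 min. Its zero in 135 min replicate 1, among 3154062 fragments, allows up to 0.951 CPM, while replicate 2 held 60 fragments. The differences in mean log2(CPM + 1) from control were 1.10, -0.41 and 0.39 (2-sided exact permutation test, p = 0.286, 0.8 and 0.8). In the 9 libraries, where it was tested by edgeR, its log2 fold changes were 0.90 (SE 0.97), 0.66 (SE 0.97) and 0.04 (SE 1.30).

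The members could be ranked by level only per length of transcript, as CPM per kilobase of exon. In the 7 libraries the medians were 53.2 for Dusp4, 14.0 for Dusp1, 12.1 for Dusp6, 8.77 for Dusp10, 6.65 for Dusp14, 3.30 for Dusp16, 1.10 for Dusp5 and 0.201 for Dusp8. Dusp4 ranged from 12.2 to 105, which overlapped Dusp1 (6.56 to 25.1) and Dusp6 (5.44 to 16.7) only at its lowest value, in 45 min replicate 2. In this order, each member overlapped with its neighbours. The median of Dusp4 was 3.81 times that of the next member, or 1.76 times with the deposited FPKM. In control the medians were within a narrower span, from 6.24 for Dusp5 to 16.6 for Dusp10, with Dusp4 at 8.13 in the fifth place. Each member's range there overlapped those of its neighbours in the order, while Dusp4 (4.504 to 10.2) and Dusp16 (5.90 to 9.68) stayed below Dusp10 (10.8 to 32.3). The control order differed in deposited FPKM, where Dusp4 had the lowest median (8.48) and Dusp10 the highest (16.7). On that scale Dusp4 (4.65 to 10.4) overlapped Dusp10 (9.44 to 33.0).

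The density on receptor genes, measured as CPM per kilobase without the top 5% of these genes, gave a level to set the members against. It was 6.46 to 9.24 in the 9 libraries and 0 to 4.34 in the 7. Among the 7 libraries Dusp1, Dusp4 and Dusp6 were above their library's receptor density in 7 of 7, Dusp10, Dusp14 and Dusp16 in 6 of 7, and Dusp5 and Dusp8 in 5 of 7. In the 9 libraries the members' own medians, from 7.04 for Dusp5 to 16.2 for Dusp10, lay near that density, and Dusp5 was above it in 3 of 9. The lowest ratio of Dusp4 to its library's receptor density was 12.3 in the 7 libraries and 0.515 in the 9. The levels of these genes in the 9 libraries were thus close to those of receptor genes, and how much of them was cellular mRNA was not tested.

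**Figure D4:**
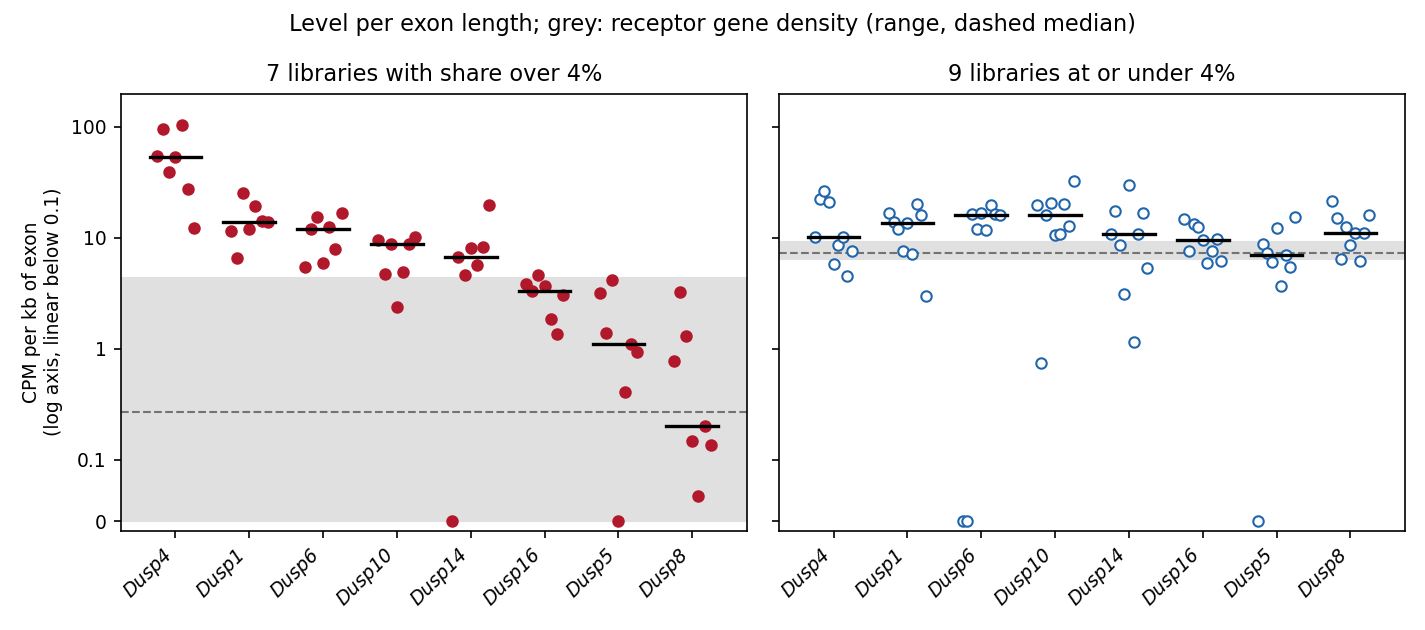
Points are CPM per kilobase of exon (log axis, linear below 0.1) of each member in the 7 libraries with a ribosomal protein share over 4% (left) and the other 9 (right), bars are medians, and the grey band and dashed line are the range and median of the density on receptor genes. On the left the medians fall from 53.2 for Dusp4 to 0.201 for Dusp8, and on the right they lie between 7.04 and 16.2.

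Dusp1 and Dusp8 lay far apart in the order of the 7 libraries (medians 14.0 and 0.201 CPM per kilobase). In control they were next to each other (11.7 and 11.1), though not in deposited FPKM (15.5 and 9.57). Both promoters held the cAMP response element (CRE), the letters TGACGTCA bound by CREB and ATF proteins. Their promoters are shown here from RefSeq (GRCm38.p6, 250 bases before to 50 after the gene start, each in the direction of its gene, minus strand). Dusp1 and Dusp8 were the members with a full CRE among the 7 with a promoter sequence. Dusp4 had no promoter sequence here and was not searched for any motif. Capitals mark the CRE and its half-site TGACG.

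Dusp1, chr17:26508423-26508722: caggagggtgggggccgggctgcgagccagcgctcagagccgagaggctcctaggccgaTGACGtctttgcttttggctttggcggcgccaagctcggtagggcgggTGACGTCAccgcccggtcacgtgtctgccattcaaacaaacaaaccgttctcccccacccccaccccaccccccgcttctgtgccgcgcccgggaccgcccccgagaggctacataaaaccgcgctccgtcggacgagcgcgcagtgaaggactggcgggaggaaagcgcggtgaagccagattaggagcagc

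Dusp8, chr7:142095235-142095534: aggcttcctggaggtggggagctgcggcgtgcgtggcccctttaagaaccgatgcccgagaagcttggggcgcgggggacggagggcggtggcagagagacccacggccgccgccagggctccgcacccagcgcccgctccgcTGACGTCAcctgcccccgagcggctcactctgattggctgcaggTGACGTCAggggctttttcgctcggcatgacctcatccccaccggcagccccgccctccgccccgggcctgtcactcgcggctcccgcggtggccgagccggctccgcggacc

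The CRE of Dusp1 began 143 bases before the gene start and those of Dusp8 107 and 63 bases before it. A full CRE, which reads the same on both strands, was in 2 of the 7 members with an entry in the promoter table and in 1.79% of its 32851 promoters. The half-site TGACG, searched on both strands and contained in each full CRE, was in 4 of 7 (Dusp1, Dusp5, Dusp8 and Dusp16) and in 20.8% of all. Dusp5 held a pair of CArG boxes, the motif bound by serum response factor, 82 and 72 bases before its start, and 1.63% of all promoters held one or more. The AP-1 motif TGANTCA was in 0 of 7 (7.81% of all), TATAAA in 0 of 7 (13.6%) and the heat shock pair GAANNTTC in 1 of 7, Dusp16 (7.86%). These are matches of letters, and binding was not measured.

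The other genes of the pathway were read from fixed lists in the same fits. The first list held stress genes that proteasome inhibition is known to induce. In the 7 libraries 4 of 4 tested genes of it had positive log2 fold changes for 405 against 45 min (median 4.16). All 4 had an unadjusted p under 0.05 and DESeq2 called 3. Of all genes tested, 3.01% were higher at that p and DESeq2 called 0.721%. Hspa1b, an inducible heat shock chaperone, was at 71.6 and 163 CPM at 45 min and at 2834, 10097 and 5899 CPM at 405 min in these libraries (log2 fold change 5.74, SE 1.26, adjusted p = 0.672, edgeR quasi-likelihood test). The log2 fold change was 4.44 (SE 0.97) for Dnajb1 and 3.89 (SE 1.25) for Hsph1, which also encode heat shock proteins. In the 9 libraries edgeR called 1 of 3 tested genes of this list higher at 405 min against control, and DESeq2 called 1, Hspa1b (5.33, SE 0.66). Beside this, the 6 tested members had a median of 0.50, with 4 positive and 2 negative, against 0.14 over all 8605 genes, of which 55.7% were positive.

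The other dual-specificity phosphatases included 9 tested genes of 19, with 8 positive, 1 negative and a median of 0.80. Of these, 0 had an unadjusted p under 0.05, beside 7.16% of all genes tested. Dusp7, an ERK phosphatase related to Dusp6, was at 2.11 (SE 1.15) on the log2 scale. Dusp22 was at 1.52 (SE 1.09) and Dusp12 at -1.33 (SE 0.92). By library, Dusp7 was at 10.4 and 2.13 CPM at 45 min and 20.5, 60.6 and 4.47 CPM at 405 min. Dusp22 was at 7.62 and 7.37 CPM, then 10.6, 53.4 and 4.32 CPM. Both were highest in 405 min replicate 3, which had the highest receptor share of the 7. Dusp12 was at 13.7 and 53.7 CPM, then 20.8, 4.33 and 14.4 CPM. The reference changes to control over all 16 libraries, and every control was among the 9. At 405 min against control 1 gene was positive and 5 negative of 6 tested, with a median of -0.39. Among the 9 libraries 5 were positive and 7 negative of 12 tested at that time, with a median of -0.01.

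Of the MAP kinases themselves, 7 of 11 were tested in the 7 libraries, 6 were positive and the median log2 fold change was 0.37. Mapk9, a JNK, was at 0.84 (SE 0.53), Mapk6 at 0.44 (SE 0.76) and Mapk14, a p38, at 0.39 (SE 0.95). The upstream kinases had 9 positive and 5 negative of 14 tested (18 listed) with a median of 0.33, among them Map3k11 at 2.60 (SE 1.28), Map3k3 at 1.80 (SE 0.88) and Araf at -1.49 (SE 0.71). Map3k11 was at 1.58 and 4.75 CPM at 45 min and at 13.6, 46.2 and 2.01 CPM at 405 min, highest in replicate 3. Map3k3 was highest at 405 min in replicate 1, at 76.2 CPM. No gene of these lists passed an unadjusted p of 0.05 in this comparison, beside 7.16% of all genes tested. At 405 min against control, the medians of the MAP kinases and of the upstream kinases were 0.80 (5 of 6 positive) and 0.15 (6 of 9) over all 16 libraries, and 0.21 (3 of 6) and -0.15 (5 of 12) in the 9.

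The other feedback inhibitors of ERK signalling, the Sprouty and Spred genes and their relatives, had 4 positive and 4 negative of 8 tested and a median of 0.02. Spred2 was at 1.21 (SE 0.95), Spry4 at 0.66 (SE 0.88) and Spry2 at -0.69 (SE 0.84). At 405 min against control the list had 2 positive and 3 negative of 5 tested both over all 16 libraries (median -0.53) and in the 9 (median -0.41).

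The transcription factors that ERK and JNK induce or activate had 15 positive and 4 negative of 19 tested (25 listed), with a median of 0.31. Atf3, a stress-induced member of the ATF family, had the smallest p of the list: it was at 2.67 and 5.40 CPM at 45 min, 35.8 and 31.9 CPM at 135 min and 177, 83.7 and 185 CPM at 405 min in the 7 libraries (log2 fold change 5.24, SE 0.80, adjusted p = 0.484, edgeR quasi-likelihood test), and DESeq2 called it. Egr1, an immediate-early target of ERK, was at 83.7 and 61.6 CPM at 45 min and 21.6, 42.6 and 5.62 CPM at 405 min, a log2 fold change of -1.72 (SE 0.77). Elk3 was at -1.31 (SE 0.59). At an unadjusted p under 0.05, 1 gene of the list was higher and 2 were lower, beside 259 and 357 of the 8605 genes tested. Set against control, a different reference, the 405 min values had 3 positive and 5 negative of 8 tested over all 16 libraries (median -0.28). In the 9 they had 4 positive and 6 negative of 10 tested (median -0.04).

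The growth factor ligands and receptors had 5 positive and 7 negative of 12 tested (15 listed) and a median of -0.82. Pdgfrb, a receptor tyrosine kinase for platelet-derived growth factor and also on the fibroblast marker list, was at 191 and 307 CPM at 45 min and 45.7, 15.9 and 21.1 CPM at 405 min (log2 fold change -3.19, SE 0.67, adjusted p = 0.672, edgeR quasi-likelihood test), and DESeq2 called it lower. Met, the receptor for hepatocyte growth factor, was at -1.28 (SE 0.54) and Ereg, an EGF receptor ligand, at 1.42 (SE 0.67). At an unadjusted p under 0.05, 2 genes of the list were lower and 0 higher, beside 357 and 259 of the 8605 genes tested. In the 9 libraries DESeq2 called Met lower at 135 min against control (-2.22, SE 0.58), as it did 113 of 8366 genes. Against control, a different reference, 6 of 6 tested genes were positive at 45 min over all 16 libraries (median 1.01, 2 called higher by DESeq2). Of all genes tested there, 54.9% were positive and DESeq2 called 6.56%. At 405 min 4 of 6 of the list were positive over all 16 libraries (median 0.40). In the 9 the list had 2 positive and 4 negative at 45 min (median -0.12), with 0 called by DESeq2. At 405 min it had 3 positive and 3 negative there (median -0.03). In the edgeR fit 0 genes of any list were called in the 7 libraries, as were 0% of all genes tested there.

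**Figure D5:**
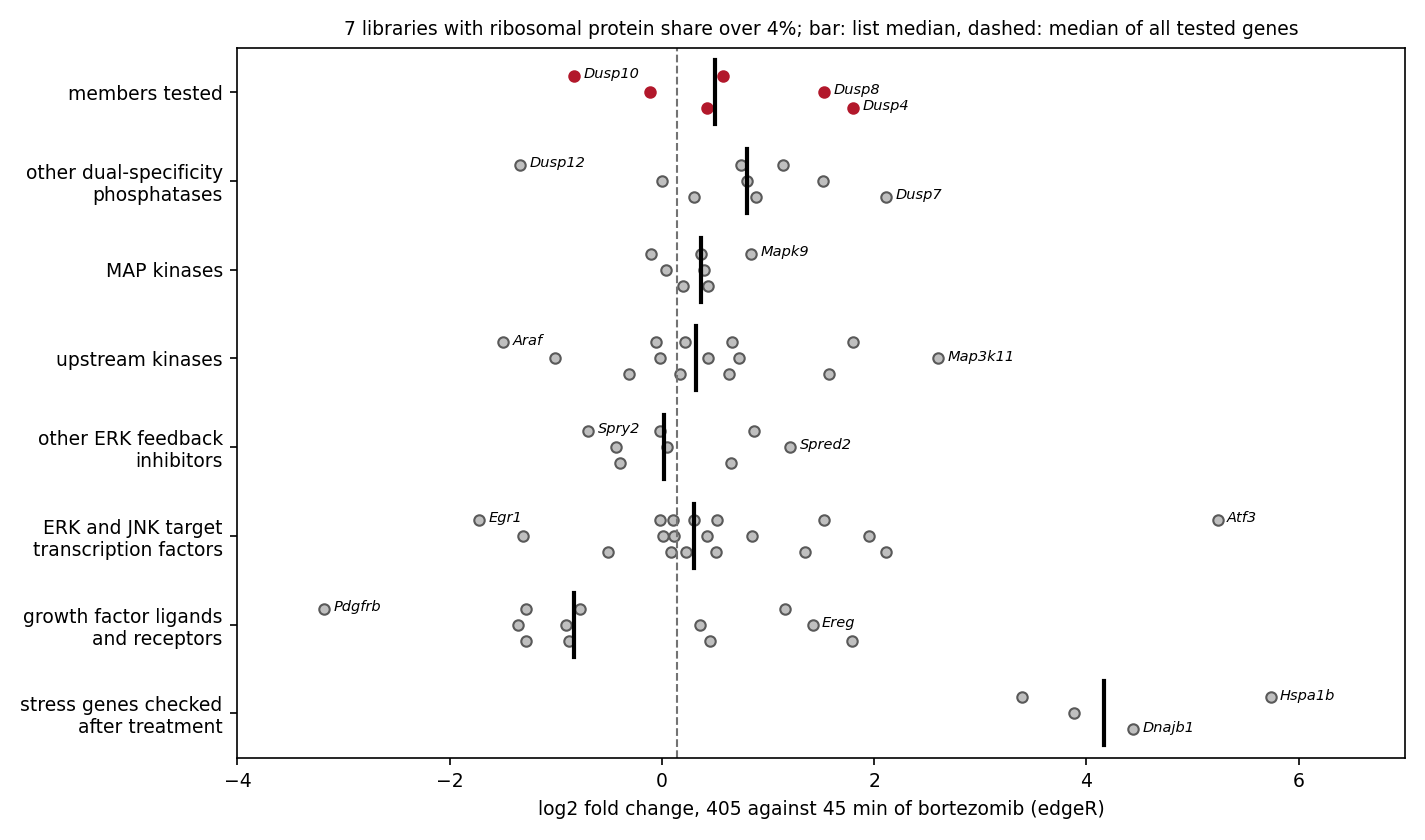
Each point is the log2 fold change of 1 tested gene for 405 against 45 min in the 7 libraries with a ribosomal protein share over 4%, by list, with bars at the list medians and a dashed line at the median of all tested genes (0.14). The members (red) span -0.82 for Dusp10 to 1.80 for Dusp4, and the stress genes checked after treatment lie from 3.39 to 5.74.

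As a description, the genes whose log2(CPM + 1) followed each member most closely over the 7 libraries were listed among 9991 genes with a mean of 50 fragments or more. For Dusp4 these were Ccne2, which encodes cyclin E2 (Pearson r = 0.98), C130083M11Rik (r = 0.96) and Serpini1 (r = 0.95). For Dusp1 the closest was the amino acid transporter gene Slc38a2 (r = 0.93), for Dusp6 the copper transporter gene Atp7a (r = 0.96), and for Dusp14 Faim (r = 0.99), an inhibitor of Fas-induced cell death. The 7 points share depth and composition, and the best of many genes over so few points is high by selection. Between the members themselves r ranged from -0.58 (Dusp4 and Dusp10) to 0.76 (Dusp5 and Dusp10), and Dusp4 and Dusp1 were at -0.23.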

How the data were processed

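RNA of 16 libraries was measured by sequencing. For each library the deposited table gave estimated counts (raw fragments) of 23356 genes beside FPKM, as the authors computed both. The FPKM values were used only to rank levels and compare overlaps. Per the study's methods, alignment was to mm9 with counting over RefSeq genes on the DNAnexus platform, while the submitters' processing notes name mm10; the aligner, the counter and the use of strand are not given in the sources used here. The labels name a NuGEN Encore Complete kit and the methods oligo(dT) selection, and which library was made in which way is not given there either. Between 98.9% and 99.8% of the estimated counts were whole (tolerance 0.01), and all were rounded. The deposited file of 45 min replicate 1 held dates in place of 27 symbols, which were restored from the row order common to the files. Of 120 library pairs, 0 were identical. Totals were 570323 to 19930375 fragments, so counting error was larger in the shallow libraries.

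The members, the lists and the tests were chosen with earlier results of these data known. Values printed by library are CPM over all fragments without scaling. Groups came from the sample titles. Genes with at least 1 fragment in every library of a fit were tested by edgeR's quasi-likelihood F test, version 4.0.16 under R 4.3.3, after TMM scaling and with 1 mean per group: over all 16 libraries (5030 genes, 5 of 8 members), over the 7 with a ribosomal protein share over 4% (8605 genes, 6 members) and over the other 9 (8366 genes, 6 members). Adjusted p are Benjamini-Hochberg values over all genes of a fit with a threshold of 0.05, and SE was taken as the absolute log2 fold change over the root of F. DESeq2 1.42.0 was an alternative. Members absent from the fit over all libraries were compared on TMM-scaled log2(CPM + 1) by exact permutation tests (SciPy 1.17.1). From each list, the 3 genes with the smallest p for 405 against 45 min in the 7 libraries are named with every gene that edgeR called. Lists are described by counts and medians, without a test of the list. Genes named for likeness are those with the highest r.

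GENCODE M1 (NCBIM37) gave gene positions and the summed exon lengths and matched 21206 symbols (90.8%). Promoter sequences came from RefSeq (GRCm38.p6). The share of 4%, the receptor density and the pair with the lowest receptor shares were set after values had been seen. The alternatives were RLE factors, filterByExpr, no filter beyond all-zero genes, DESeq2, fits of only the 2 groups compared, a share of 6%, the share without Rps6k symbols, the replicate number as a block, a pseudocount of 0.1, CPM without TMM factors, deposited FPKM for levels, FPKM and TMM-scaled CPM for overlap between groups (chosen after seeing the data), and each library left out in turn. The fits were tested on simulated data.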

Additional observations from a re-analysis of the deposited data

Results flagged for a closer look

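Dusp1 in 45 min replicate 3 stood apart from its group: its log2(CPM + 1) was 4.42, while the other 3 libraries at 45 min were between 5.24 and 5.30. The gap was 0.934 of the range of the group, above Dixon's 95% critical value for 4 samples. This was 1 such case among 44 groups of 4 libraries examined (the 8 members, the ribosomal and receptor shares and the depth at each time), where chance gives about 1 in 20, or 2.2. In CPM the value was 20.4, within the range of the Dusp1 controls.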

How the results depend on the processing

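No member was called by edgeR under any alternative run, which says nothing of stability since few genes of any kind were called. DESeq2 called 1, Dusp4 at 405 min against control (log2 fold change 3.13). Counts of called genes moved more. Against control, the numbers called by DESeq2 at 45, 135 and 405 min were 330, 173 and 404, and 3 for 135 against 45 min and 62 for 405 against 45 min in the 7 libraries. In the 9 it called 125 at 135 min and 4 at 405 min. With filterByExpr edgeR called 1 gene at 405 min against control, 4 for 405 against 135 min and 6 for 405 against 45 min in the 7 libraries, and 8 at 135 min in the 9. With only all-zero genes removed these were 1, 8, 16 and 27, and 3 for 135 against 45 min. With 1 library left out, 0 to 468 genes were called at 135 min against control in the 9 libraries and 1 to 3 at 405 min; the 468 were without 135 min replicate 4, and without replicate 3 there were 100. A share of 6%, which moved 405 min replicate 3 to this kind of library, gave 15 at 405 min against control and 0 at 135 min.

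Same-numbered libraries did not deviate together in every pair of groups (mean r 0.0734 over 24 pairs, 14 of them over 0.1). For 45 and 135 min, where equal numbers also share the kind of library, all 4 pairs did (r from 0.51 to 0.56). With the replicate block 0 genes were called at each time over all libraries and 0 at 405 min in the 9. With the block Dusp4 in the 7 libraries was 1.86 (SE 1.07) at 135 against 45 min, 0.81 (SE 1.27) at 405 against 45 min and -1.05 at 405 against 135 min, and Dusp6 was 0.82 at 405 against 45 min.

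Some differences, none of them called, changed sign under other settings. Dusp4 for 405 against 135 min was -0.0192 with DESeq2, -0.0194 with RLE factors, -0.031 with filterByExpr and -0.0237 with only all-zero genes removed. Dusp6 for 405 against 45 min was 0.20 with a share of 6%. Dusp16 was 0.39 and 0.0838 at 405 and 45 min against control with filterByExpr, 0.44 and 0.0802 with only all-zero genes removed, and 0.0225 and 0.0518 with only the 2 groups compared. The causes were not tested.

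With 1 library left out in turn, other values changed sign too. Against control over all libraries, Dusp1 ranged from -0.15 to 0.63 and Dusp8 from -0.74 to 0.25 at 135 min, and Dusp16 from -0.52 to 0.28, -0.34 to 0.30 and -0.78 to 0.0056 at 45, 135 and 405 min. In the 7 libraries Dusp4 ranged from -0.63 to 0.32 for 405 against 135 min, Dusp6 from -1.17 to 0.0789 and Dusp10 from -1.27 to 0.0379 for 135 against 45 min, and Dusp6 from -0.57 to 0.61 and Dusp8 from -1.19 (without 405 min replicate 1) to 2.07 for 405 against 45 min. In the 9, Dusp4 at 45 min ranged from -0.41 to 1.45. On log2(CPM + 1), Dusp6 ranged from -0.31 to 0.0847 at 45 min and -0.29 to 0.18 at 405 min, and Dusp14 from -1.10 to 0.83 at 135 min and -0.30 to 0.85 at 405 min.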
